A study of Chromochloris zofingiensis with 6 samples.

Results

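The chloroplast genome of the green microalga Chromochloris zofingiensis is represented in the count table by the 73 gene IDs that start with CzCPg, of 15364 IDs in all. The prefix was read as that of the chloroplast, as in the published annotation of the species. The files give no gene name, product or coordinate for any of them. The compartment could therefore not be checked against known chloroplast genes, and no role is given to any single ID here.

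A chloroplast genome codes for part of the machinery of its own organelle. In green algae this includes core subunits of the photosystems, subunits of the ATP synthase, the large subunit of Rubisco, ribosomal proteins and RNAs, transfer RNAs and subunits of a bacterial-type RNA polymerase, while most other chloroplast proteins come from nuclear genes. Neighbouring chloroplast genes are often transcribed together and cut into separate messages afterwards. Chloroplast messages mostly lack the long tails of nuclear messages, and when C. zofingiensis takes up glucose its photosynthesis is known to decline.

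Both groups were cultures of strain ATCC 30412 shaken in darkness at 25 °C and 150 rpm in medium with 30 g/L glucose, and RNA was taken on day 15. Controls received no levofloxacin (3 libraries), and the treated cultures received it at 10 mg/L (3 libraries). Levofloxacin is a fluoroquinolone that blocks bacterial type II topoisomerases. No light-grown culture was analysed here, so the levels describe dark-grown cells and are no measure of a response to darkness. The labels do not say whether replicates were separate cultures, so the spread between libraries may be in part technical.

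The libraries held 28482776 to 36223195 reads assigned to genes, of which very few were chloroplast reads. Control replicates 1, 2 and 3 had 3250, 2189 and 748 of them, and levofloxacin replicates 1, 2 and 3 had 428, 706 and 849. As a level this was 111, 60.4 and 21.8 reads per 1e6 assigned reads (CPM) in the controls and 15.0, 21.4 and 26.5 CPM with levofloxacin. Control replicate 3 thus lay among the treated libraries, while control replicates 1 and 2 lay above all of them. The mean was 64.4 ± 44.7 CPM in controls and 21.0 ± 5.74 CPM with levofloxacin (SD, n = 3), a difference of -43.4 CPM with control replicate 1 and -20.1 CPM without it. In a share of all assigned reads, fewer chloroplast genomes per cell, less RNA per genome and more RNA from the nucleus cannot be told apart. How the protocol treated messages without tails is not given in the sources used here.

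The other organelle did not follow the same order. Mitochondrial IDs (prefix CzMTg, 22 IDs) had 336, 233 and 247 CPM in the controls and 270, 226 and 375 CPM with levofloxacin, replicates in order. For every 100 mitochondrial reads there were 33.0, 26.0 and 8.82 chloroplast reads in the controls and 5.57, 9.45 and 7.07 with levofloxacin. On this scale too, control replicate 3 lay within the treated range. The difference of the group means was -15.2 chloroplast reads per 100 mitochondrial reads with control replicate 1 and -10.0 without it. With 3 libraries against 3, an exact permutation test (two-sided) cannot go below p = 0.10, so it could not pass 0.05 for these sums. This permutation test gave p = 0.2 for the chloroplast level and p = 0.2 for the ratio to mitochondrial reads.

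**Figure D1:**
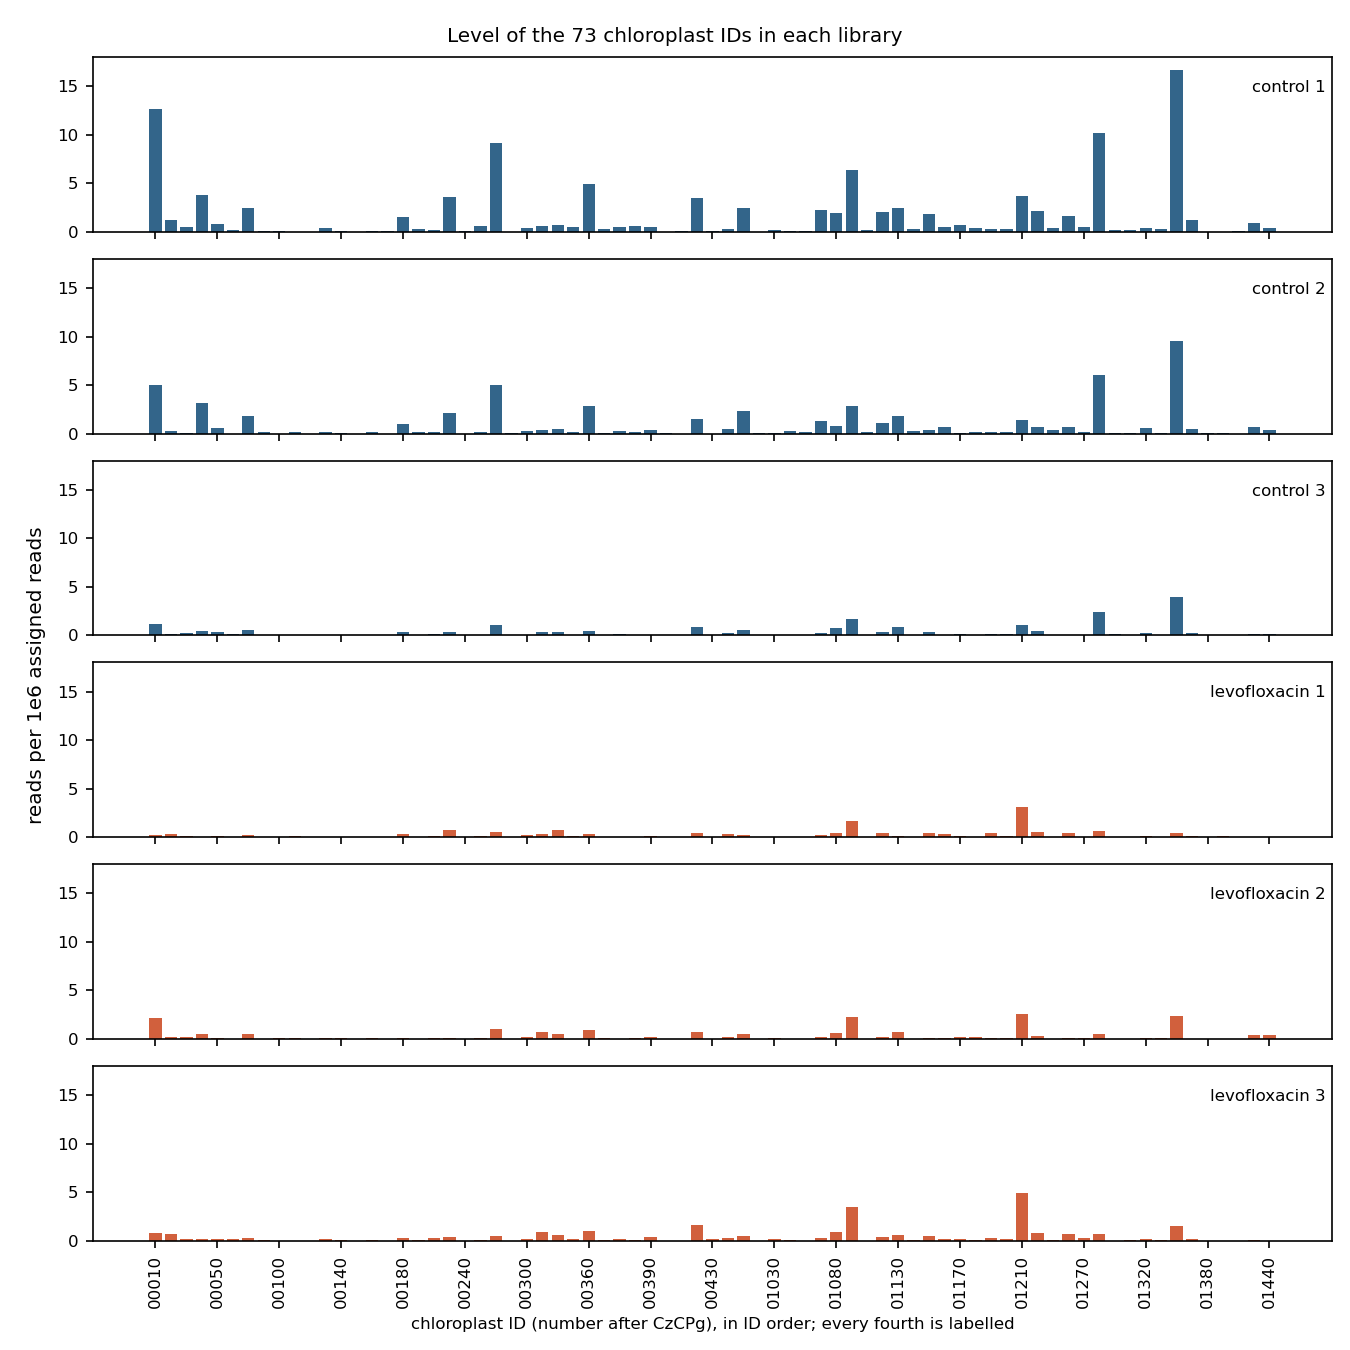
Level of each of the 73 chloroplast IDs, in reads per 1e6 assigned reads, along the order of ID numbers, with 1 panel per library and a shared vertical scale (blue, control; orange, levofloxacin). A few tall bars carried each library; the tallest was CzCPg01360 in each control and CzCPg01210 in each levofloxacin library.

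A small set of IDs carried the reads. Over all libraries together there were 8170 chloroplast reads, and the 10 IDs with the highest mean CPM held 63.9% of them. At least 60 reads were counted on 26 IDs, which held 88.9% of the reads. A further 37 IDs had 4 to 59 reads, 9 IDs had 1 or 2 reads, and 1 ID had none. Reads were found in every library for 34 IDs, and at least 10 reads in every library for 9 IDs.

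The highest mean level was that of CzCPg01360, whose length, recovered from counts and FPKM, is 2208 bases. Control replicates 1, 2 and 3 had 489, 346 and 135 reads of it, and levofloxacin replicates 1, 2 and 3 had 13, 78 and 50. The groups did not overlap per 1e6 assigned reads, with 16.7, 9.55 and 3.93 CPM in controls and 0.456, 2.36 and 1.56 CPM with levofloxacin. CzCPg01360 was the most abundant chloroplast ID in all 3 controls and in none of the treated libraries.

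The second, CzCPg00010 (1062 bases), is the first ID of the numbering. It had 371, 180 and 40 reads in the controls (replicates 1, 2 and 3 here and below) and 7, 70 and 24 reads in the treated libraries. Its groups overlapped, because levofloxacin replicate 2 (2.12 CPM) lay above control replicate 3 (1.16 CPM).

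The third, CzCPg01290 (1533 bases), separated the groups most widely among the abundant IDs. It had 299, 219 and 83 reads in the controls and 17, 17 and 23 reads with levofloxacin. All treated libraries were low, at 0.515 to 0.718 CPM, while the lowest control had 2.42 CPM.

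Next in level was CzCPg01090 (1446 bases), with 186, 104 and 57 reads in the controls and 47, 74 and 110 with levofloxacin. Control replicate 3 (1.66 CPM) and levofloxacin replicate 1 (1.65 CPM) were at the same level, and levofloxacin replicate 3 (3.43 CPM) was above control replicates 2 and 3. CzCPg00270 (1987 bases) had 268, 183 and 38 reads in the controls and 15, 34 and 15 with levofloxacin. Its lowest control (1.11 CPM) lay just above its highest treated library (1.03 CPM).

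The sixth, CzCPg01210, differed from all of these. Its recovered length is only 89 bases, and with CzCPg00270 it is 1 of 2 IDs among 72 with a length that is not a multiple of 3. It had 107, 52 and 38 reads in the controls and 89, 86 and 159 reads with levofloxacin. In CPM these were 3.65, 1.44 and 1.11 in the controls and 3.12, 2.61 and 4.96 with levofloxacin, so control replicate 1 lay within the treated range. CzCPg01210 was the most abundant chloroplast ID in each levofloxacin library.

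The last 4 of the 10 most abundant IDs followed the controls' order. CzCPg00360 (1428 bases) had 143, 103 and 16 reads in the controls and 8, 30 and 32 with levofloxacin. CzCPg00420 (1527 bases) had 102, 56 and 29 in the controls and 12, 22 and 52 with levofloxacin. CzCPg00040 (1386 bases) had 112, 115 and 16 in the controls and 1, 16 and 6 with levofloxacin. In each of these 3 IDs control replicate 3 was below at least 1 treated library in CPM. CzCPg00210 (1062 bases), with 105, 75 and 12 reads in the controls and 20, 4 and 13 with levofloxacin, also overlapped between the groups.

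**Figure D2:**
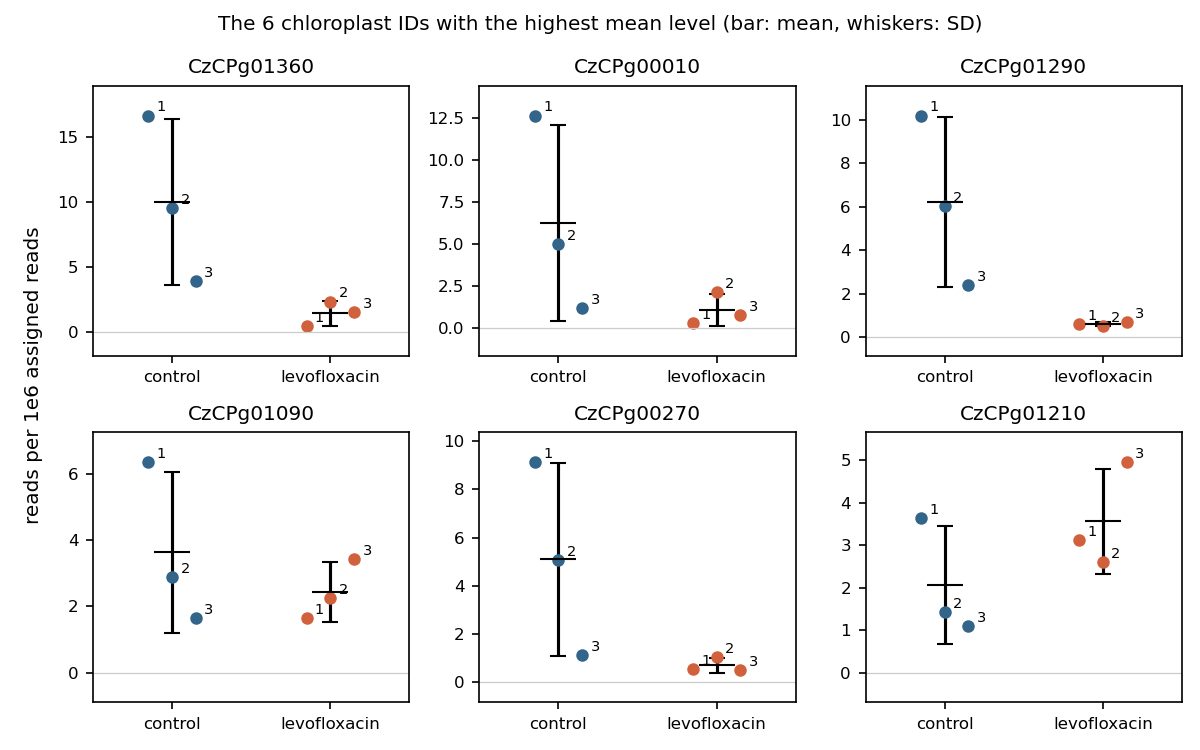
Reads per 1e6 assigned reads for the 6 chloroplast IDs with the highest mean level; points are libraries with their replicate numbers, the bar is the mean and the whiskers are the SD (n = 3), and each panel has its own scale. Control replicate 1 was the highest library in 5 of the panels, and levofloxacin replicate 3 in that of CzCPg01210.

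Among the 10 most abundant IDs, the share of chloroplast reads kept the groups apart for some and overlapped for 5. The totals of the groups overlapped. Groups without overlap were common in the whole table. In CPM they were found in 20.0% of all tested IDs in the lower and in 22.6% in the higher direction. CzCPg01210 held 3.29%, 2.38% and 5.08% of the chloroplast reads in control replicates 1, 2 and 3, against 20.8%, 12.2% and 18.7% with levofloxacin. CzCPg01290 held 9.20%, 10.0% and 11.1% in the controls and 3.97%, 2.41% and 2.71% with levofloxacin. CzCPg01360 held 15.0%, 15.8% and 18.0% in the controls and 3.04%, 11.0% and 5.89% with levofloxacin. For each of these IDs the groups did not overlap, and control replicate 3 was placed with the other controls.

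Control replicate 3 allows this comparison at like depth. It had 748 chloroplast reads, beside 706 and 849 in levofloxacin replicates 2 and 3. The exact 95% binomial interval of the CzCPg01210 share was 3.62 to 6.91% in control replicate 3, 9.86 to 14.8% in levofloxacin replicate 2 and 16.2 to 21.5% in levofloxacin replicate 3. For CzCPg01290 it was 8.94 to 13.6%, 1.41 to 3.83% and 1.72 to 4.04% in the same libraries. The intervals of the control and the treated libraries did not touch for either ID. Both IDs were taken up here with their separated shares known, so this is no separate support. The intervals cover counting error only, since the reads carry no molecular identifiers, and leave out the spread between libraries. Of the chloroplast counts from 1 to 12, 67.8% were even, and whether reads entered the counts in pairs, which would make the intervals too narrow, was not tested. For CzCPg01360 the intervals were 15.4 to 21.0% in control replicate 3, 8.83 to 13.6% in levofloxacin replicate 2 and 4.40 to 7.69% in levofloxacin replicate 3.

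Among the 10 most abundant IDs the share was lower in every treated library than in every control for 3 IDs, CzCPg01360, CzCPg01290 and CzCPg00270. It was higher for 2 IDs, CzCPg01210 and CzCPg01090, and overlapped for 5. The rates over all tested IDs, 20.0% lower and 22.6% higher, are for levels in CPM. No such rate was taken for shares. Shares of 1 total are tied to each other, and the higher share of CzCPg01210 went with levels that overlapped between the groups. Without CzCPg01360 in the total, CzCPg01210 held 2.82 to 6.20% in the controls and 13.7 to 21.4% with levofloxacin.

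The 3 IDs with the highest mean CPM over the 6 libraries were also added up. Controls weigh most in that mean, so the choice favours IDs high in controls. A larger share of these IDs in controls is therefore in part built in. As 1 sum, CzCPg01360, CzCPg00010 and CzCPg01290 held 35.7%, 34.0% and 34.5% of chloroplast reads in control replicates 1, 2 and 3. With levofloxacin they held 8.64%, 23.4% and 11.4%. The 3 controls were thus within 2 percentage points of each other although their chloroplast totals differed 5.09-fold between replicates 1 and 3, while the treated libraries varied widely. The single IDs were less steady than their sum. In control replicates 1, 2 and 3 the share of CzCPg00010 was 11.4%, 8.22% and 5.35%, while those of CzCPg01360 and CzCPg01290 were highest in replicate 3.

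Over all 73 IDs, the composition overlap of a pair of libraries was taken as the sum of the smaller share of each ID. It was 76.8 to 87.4% between controls, 62.9 to 77.2% between levofloxacin libraries and 47.5 to 70.8% between a control and a levofloxacin library. Control replicate 3 overlapped by 78.2% and 76.8% with control replicates 1 and 2, and by 54.9%, 70.8% and 61.9% with levofloxacin replicates 1, 2 and 3. Levofloxacin replicate 1 has the fewest chloroplast reads (428), and counting noise alone lowers the overlap of small libraries.

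**Figure D3:**
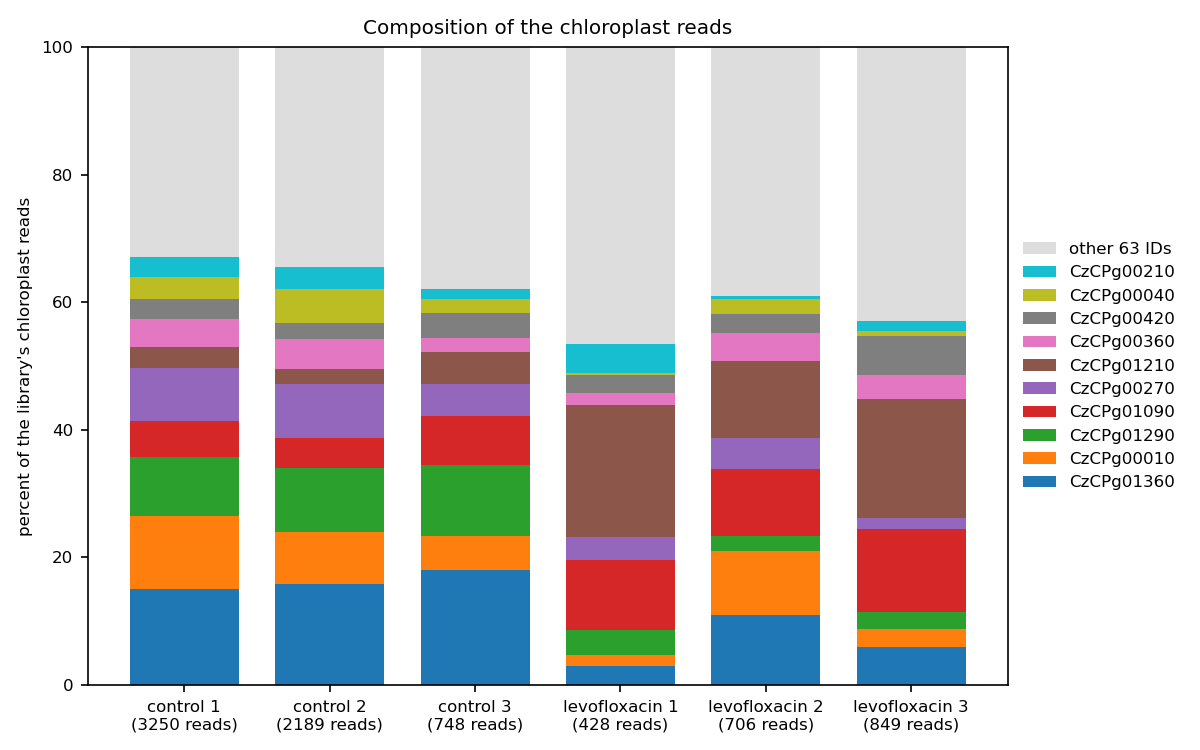
Share of each library's chloroplast reads, in percent, held by the 10 IDs with the highest mean level (colours) and by all other chloroplast IDs (grey); the number of chloroplast reads stands under each bar. The segment of CzCPg01210 ran from 2.38 to 5.08% in controls and from 12.2 to 20.8% with levofloxacin.

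Per length, chloroplast IDs were mostly at the low end of the table. The deposited FPKM (fragments per kilobase and 1e6 assigned reads) averaged over the 6 libraries had a median of 0.355 among chloroplast IDs and of 19.2 among nuclear IDs. A mean of at least 1 FPKM was reached by 16 of the 73. CzCPg01210 stood apart, with 41.0, 16.1 and 12.4 FPKM in the controls and 35.1, 29.3 and 55.7 FPKM with levofloxacin. Its mean of 31.6 FPKM was above that of 65.8% of the IDs outside the chloroplast, although division by 89 bases makes each read count heavily. The next highest means per length were 3.44 FPKM for CzCPg00010, 2.61 FPKM for CzCPg01360 and 2.23 FPKM for CzCPg01290.

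The longest IDs had few reads for their size. The 5 IDs with lengths over 3000 bases had means of 0.00895 to 0.161 FPKM. CzCPg00050, the longest at 10221 bases, had 23, 21 and 10 reads in the controls and 2, 2 and 6 with levofloxacin. CzCPg00060, at 8865 bases, had 6, 0 and 4 reads in the controls and 0, 1 and 4 with levofloxacin. The next longest, CzCPg00500 (6606 bases), was the best covered of the 5, with 72, 84 and 18 reads in the controls and 5, 16 and 14 with levofloxacin.

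Silent and nearly silent IDs were mostly short. CzCPg00120 had 0 reads in each library, which allows a level of up to 0.0155 CPM over all libraries together (3 counts), and its length could not be recovered. Another 7 IDs had a single read in the whole experiment, namely CzCPg00150, CzCPg00170, CzCPg00240, CzCPg00290, CzCPg00410, CzCPg01020 and CzCPg01420. CzCPg00400 and CzCPg01380 had 2 reads each. The lengths of these 9 IDs ran from 96 to 417 bases with a median of 117, against a median of 366 bases for IDs with 4 to 59 reads and 1161 bases for IDs with at least 60. Of 14 IDs shorter than 150 bases, 7 had at most 3 reads and 1, CzCPg01210, had at least 60. Other short IDs had more reads, such as CzCPg00380 (141 bases) with 30 and CzCPg00130 (135 bases) with 22.

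**Figure D4:**
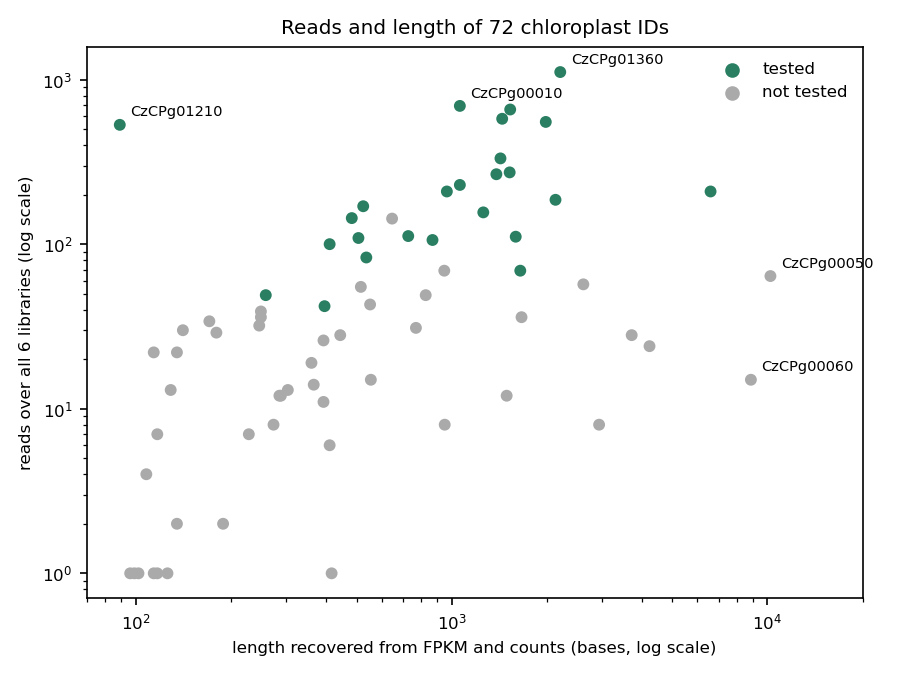
Reads over all 6 libraries against recovered length for the 72 chloroplast IDs with at least 1 read, both on log scales (green, tested between groups; grey, not tested). Reads tended to be more numerous for longer IDs up to about the length of CzCPg01360 (2208 bases); CzCPg01210 lay far above other short IDs, and CzCPg00050 and CzCPg00060 lay far below the trend.

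Fewer chloroplast IDs were detected in libraries with fewer chloroplast reads. At least 1 read was counted on 65, 64 and 51 IDs in the controls and on 41, 51 and 56 IDs with levofloxacin. When each library was thinned to 428 chloroplast reads, the expected numbers were 48.0, 48.0 and 46.2 in the controls and 41.0, 48.3 and 51.5 with levofloxacin. The groups overlapped on both scales.

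In 12 IDs all treated libraries had 0 reads while at least 1 control had some, and the opposite pattern was found in 0 IDs. For 9 of the 12 these were the IDs with 1 or 2 reads named above, which give no fold. The other 3 were CzCPg01300, with 6, 1 and 6 reads in control replicates 1, 2 and 3, CzCPg01095, with 4, 4 and 0, and CzCPg01050, with 2, 4 and 0. The pooled control level of CzCPg01300 was 4.06 times the limit of 3 counts over the pooled treated libraries. For CzCPg01095 it was 2.50 times and for CzCPg01050 1.87 times that limit. These ratios take the few control reads as exact and leave out the spread between libraries. The IDs were also picked for their 0 treated reads, so the ratios are no lower bounds of a difference. The controls held 6187 chloroplast reads and the treated libraries 1983, so IDs with few reads were more likely to be seen in controls. No rate over all IDs is given here for reads in a single group.

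Counts allowed a test between the groups for 25 of the 73 chloroplast IDs (edgeR's quasi-likelihood test over all 14236 tested IDs, Benjamini-Hochberg adjusted p under 0.05). Of these 6 fell (24.0%), 0 rose and 19 did not pass, where 12.1% of all tested IDs were called lower and 10.1% higher. At an unadjusted p under 0.05 there were 12 lower and 0 higher, beside 20.5% lower and 18.5% higher among all tested IDs. All 6 were lower by at least 2-fold, as were 5.06% of all tested IDs, and in either direction 22.1% of all tested IDs were called. Negative fold changes made up 22 of the 25, beside 49.9% of all tested IDs. Its median on the log2 scale was -1.87 for the 25 and 0.00 for the whole table. DESeq2 called 11 of the 25 lower and 0 higher, where it called 16.1% of all IDs lower. Since 19 of the 25 reached the level worth 10 reads in all 3 controls and 9 in all 3 treated libraries, the choice of tested IDs leans towards IDs that were higher in controls. Groups without overlap were found for 7 of the 25 in the lower and 0 in the higher direction, beside 20.0% and 22.6% of all tested IDs.

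The largest fold changes among the calls were those of CzCPg01290 and CzCPg00040. CzCPg01290 fell from 6.22 ± 3.89 CPM in controls to 0.610 ± 0.102 CPM with levofloxacin (SD, n = 3), which is -3.41 ± 0.56 on the log2 scale (fold change ± SE) with an adjusted p = 0.0101 in edgeR. Each of its treated libraries was below each control, and its call was narrowly lost without levofloxacin replicate 1 or 3 (adjusted p = 0.0543 and 0.0537 in edgeR). For CzCPg00040 the controls had 2.49 ± 1.78 CPM and the treated libraries 0.236 ± 0.229 CPM, and it fell by 3.39 ± 0.92 on the log2 scale (edgeR, adjusted p = 0.0369). Its groups overlapped, since control replicate 3 had 0.466 and levofloxacin replicate 2 had 0.485 CPM. Its call was lost without control replicate 1 (edgeR, adjusted p = 0.0543), without levofloxacin replicate 1, 2 or 3 (0.112, 0.0716 and 0.130), and in limma on log2(FPKM + 1) (0.0723) and on log2(FPKM + 0.1) (0.0548). The other 4 calls had log2 fold changes of -2.97 to -2.29 and adjusted p of 0.0259 to 0.0413 in edgeR.

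The number of calls rested on single libraries. Of the chloroplast IDs tested, 3 of 26 were lower without control replicate 1, 5 of 25 without control replicate 2 and 11 of 32 without control replicate 3. Without levofloxacin replicate 1, 2 or 3 it was 0 of 32, 1 of 32 and 0 of 33. Over all tested IDs, 13.1% and 4.34% were called lower without control replicate 1 or 3. Without levofloxacin replicate 1, 2 or 3 the rates were 0.983%, 2.71% and 0.962%, so calls were few in the whole table where a treated library was missing. No such rate is given for the fit without control replicate 2. Without control replicate 1, CzCPg01210 was called higher, as were 12.2% of all tested IDs (edgeR, log2 fold change 1.497 ± 0.35 SE, adjusted p = 0.0211), while with all libraries its log2 fold change was 0.72 ± 0.50 (adjusted p = 0.322). CzCPg00310 and CzCPg00320 were the other tested IDs with a positive fold change. CzCPg00310 (411 bases) had 16, 14 and 10 reads in the controls and 8, 24 and 28 with levofloxacin. CzCPg00320 (507 bases) had 21, 16 and 13 in the controls and 22, 17 and 20 with levofloxacin. Over the 6 libraries CzCPg00310 ran from 0.281 to 0.874 CPM and CzCPg00320 from 0.379 to 0.772 CPM; the groups overlapped in both, and neither passed the test.

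Some IDs with many reads were outside the test. CzCPg01070 (648 bases) had the most reads of any untested ID, with 66, 48 and 8 in the controls and 6, 7 and 8 with levofloxacin. The tested ID with the fewest reads was CzCPg01440, with 10, 14 and 4 in the controls and 14 for levofloxacin replicate 2, the other treated libraries having 0. The filter asks for reads in enough libraries, so CzCPg01070, high in a pair of controls only, did not pass it.

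The spread between controls was wide and alike in direction over the IDs. Of the 26 IDs with at least 60 reads, 25 had their lowest control level in replicate 3, and in 25 replicate 1 was above replicate 2 and replicate 2 above replicate 3. The ratio of control replicate 1 to control replicate 3 ran from 1.87 to 13.7 over the 25 IDs with a read in control replicate 3, with a median of 4.69. The highest ratio, that of CzCPg00020, rests on 35 reads against 3. Among more abundant IDs the ratio was 4.24 for CzCPg01360, 4.22 for CzCPg01290 and 3.82 for CzCPg01090. It was 10.9 for CzCPg00010, 10.5 for CzCPg00360 and 10.3 for CzCPg00210. The chloroplast IDs thus did not scale by a single factor between controls. The median coefficient of variation of the 25 tested chloroplast IDs was 67.1% among controls and 49.2% among levofloxacin libraries. For 2622 nuclear IDs with totals in the same range of 42 to 1111 reads it was 27.0% and 18.6%.

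Most of the contrast lay in control replicates 1 and 2. The mean control level was above the mean treated level in 23 of the 26 IDs with at least 60 reads. Controls held 6187 chloroplast reads and the treated libraries 1983, so this cut favours IDs that were higher in controls. The counts given here are in part a result of that choice. In 16 of the 26 IDs control replicates 1 and 2 were both above each treated library, a pattern for which no rate over all tested IDs is given. Every control was above every treated library in 9, and the reverse was found in 0, where among all tested IDs 20.0% and 22.6% had no overlap in these directions. In 17 of the 26 IDs control replicate 3 was at or below the highest treated library.

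Neighbours are taken here in the order of ID numbers. Without coordinates it could not be checked that this is their order along the genome. Neighbouring IDs were compared by their profiles, that is, each library's part of an ID's summed CPM. The overlap of 2 profiles is the sum over libraries of the smaller part, 100% for identical profiles. Only 8 pairs of IDs that follow each other in the table both had at least 60 reads, and 5 of them overlapped by at least 75%. The closest pair was CzCPg01080 and CzCPg01090, at 94.0%. CzCPg01080 (525 bases) had 56, 29 and 26 reads in the controls and 12, 20 and 27 with levofloxacin, and like CzCPg01090 it was highest in control replicate 1 and had its highest treated level in replicate 3. The pair CzCPg01360 and CzCPg01370 overlapped by 87.5%, CzCPg01120 and CzCPg01130 by 85.8%, CzCPg00310 and CzCPg00320 by 81.5%, and CzCPg00040 and CzCPg00050 by 80.6%.

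Neighbours were about as alike as chloroplast IDs in general. The median overlap was 81.1% over the 8 adjacent pairs and 79.8% over the 317 other pairs of chloroplast IDs with at least 60 reads. Overlaps of at least 75% made up 62.5% of the adjacent and 65.3% of the other pairs. Over 734 adjacent nuclear pairs with 60 to 1111 reads the median was 86.1%, and over 5 adjacent mitochondrial pairs in that range it was 84.3%. These pairs share libraries and IDs, and the values are a description.

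Runs of at least 3 neighbours with each overlap at or above 75% numbered 0. Among the 8 pairs, only CzCPg01070 with CzCPg01080 (71.0%) and CzCPg01080 with CzCPg01090 (94.0%) shared an ID. At most 1 run was therefore possible, and the 0 rests on the overlap of 71.0%. It does not show that neighbours vary apart. With a minimum of 65% there was 1 run, CzCPg01070 to CzCPg01090, and the same run was found without control replicate 3 and without levofloxacin replicate 3. When IDs under 60 reads were skipped, 4 runs with 18 IDs appeared, a setting chosen after the data had been seen. There 16 of 25 pairs reached 75%, a share close to the 65.3% of the 317 pairs that are not direct neighbours. The runs are therefore no sign of blocks. They were CzCPg00040 to CzCPg00270 (6 IDs), CzCPg00360 to CzCPg01070 (4 IDs), CzCPg01080 to CzCPg01130 (4 IDs) and CzCPg01290 to CzCPg01430 (4 IDs). The run CzCPg00360 to CzCPg01070 crosses a step in the numbering, from CzCPg00500 to CzCPg01020. The sharpest break lay between CzCPg00270 and CzCPg00310, whose profiles overlapped by 48.1%, where the level went from one highest in control replicate 1 to one highest in levofloxacin replicate 3. The pair CzCPg00310 and CzCPg00320 lay between CzCPg00270 and CzCPg00360, which were both highest in control replicate 1.

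**Figure D5:**
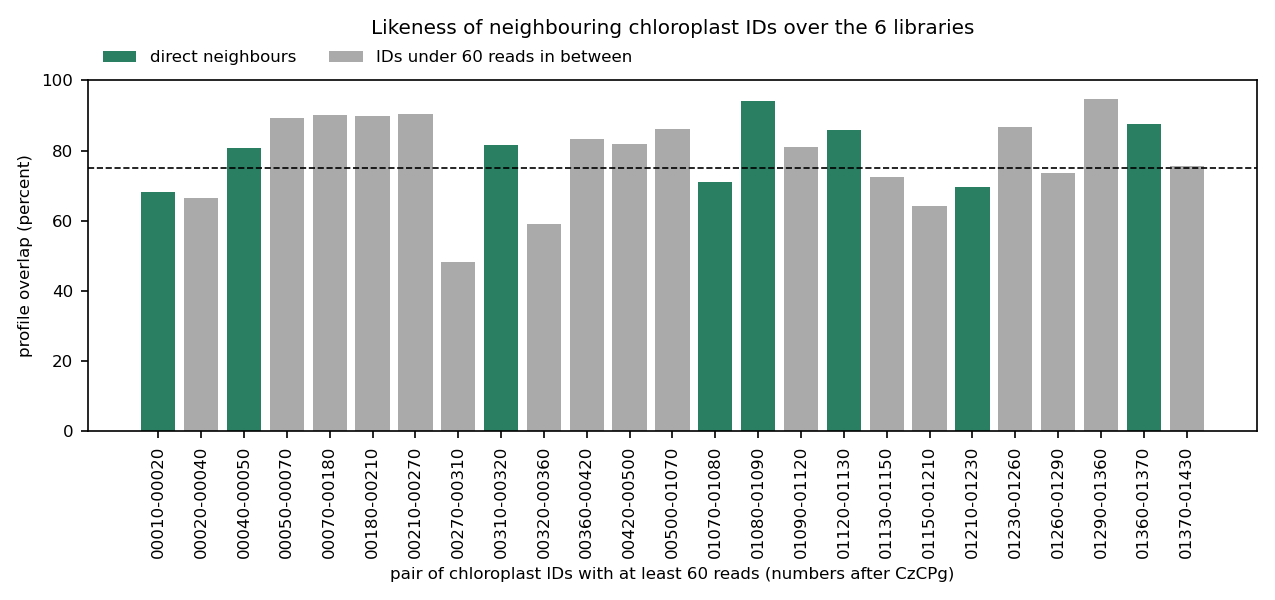
Profile overlap, in percent, between each chloroplast ID with at least 60 reads and the next such ID in the numbering (green, direct neighbours in the table; grey, IDs under 60 reads lie in between); the dashed line marks 75%. The lowest bar, 48.1%, joins CzCPg00270 and CzCPg00310, and the highest, 94.7%, joins CzCPg01290 and CzCPg01360.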

How the data were processed

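RNA-seq counts of 6 libraries (3 control, 3 levofloxacin) were used. The authors deposited raw read counts per gene ID and, in a second table, FPKM values. The submitters' processing notes name HISAT2 2.0.6 with HTSeq 0.6.1. For build, annotation and strand the sources used here give nothing, so reads of overlapping, antisense or near-identical genes cannot be told apart. Lengths were recovered from counts and FPKM values and rounded to whole bases. The whole table entered edgeR 4.0.16 under R 4.3.3 (filterByExpr, TMM, quasi-likelihood test, Benjamini-Hochberg over 14236 IDs), which was checked on simulated data. An SE is the log2 fold change over the root of its F statistic. CPM is relative to the assigned reads of each library. DESeq2 1.42.0 and limma 3.58.1 were alternatives. Intervals are exact binomial (scipy 1.17.1), and floors are 3 counts. The members and lists were chosen with earlier results of these data known. Named IDs are the 10 with the highest mean CPM, those in runs of neighbours, those with reads in a single group and those next to the filter limit; fold changes are given for the 2 lowest among the calls, since no file names the IDs. CzCPg01210 and the 2 other IDs with positive fold changes, the longest IDs and the neighbour pairs were singled out after their values had been seen.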

Additional observations from a re-analysis of the deposited data

How the results depend on the processing

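Of the 25 tested chloroplast IDs, 6 were called lower and 0 higher. The lower calls numbered 3 of 9 tested with a filter of 10 counts in each library. They numbered 11 of 25 with DESeq2 (where 16.1% of all IDs were called lower) and 3 of 72 with limma on log2(FPKM + 1). When each library was left out in turn there were 0 to 11 lower calls. The higher calls numbered 0 to 1 in those left-out fits. RLE scaling, library totals, no low-count filter (8 of 72 lower), log2(FPKM + 0.1) (6 of 72) and a 2-fold minimum left the lower calls between 6 and 8. No share over all tested IDs is given here for the filter, scaling, block and limma settings. With the replicate block there were 5 lower calls. Correlations of deviations between libraries of the same number were 0.16, 0.05 and 0.04, beside -0.16 to 0.10 between different numbers. The labels do not say that the numbers pair the samples, so they were not taken as pairs. Runs of neighbours numbered 0, with 1 at an overlap of 65%, 4 with low IDs skipped and 0 to 1 with a library left out. In the main setting at most 1 run was possible. The differences in chloroplast total, chloroplast to mitochondrial ratio and share of the 3 most abundant IDs kept their sign under each alternative run. For the share, the choice of these IDs by mean CPM favours that sign. The difference in detected IDs shrank from -10.7 to -0.49 when libraries were thinned to equal chloroplast reads, and was -14.0 for IDs with at least 10 reads. The cause of the moves was not tested. Between 428 and 3250 chloroplast reads per library limit every share.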

Other observations

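Low chloroplast counts were even more often than odd, a pattern noticed in the data and given here as values only. Among counts of 1 to 12 in single libraries, 139 of 205 chloroplast values (67.8%) were even, against 55.7% of 4748 values of all other IDs. A count of 1, which is odd, occurred 29 times. A count of 3 occurred 10 times among chloroplast IDs, beside 40 counts of 2 and 40 of 4. A count of 5 occurred 12 times and a count of 7 occurred 7 times, beside 18 counts of 6 and 17 of 8. Even counts made up 21 of 35 chloroplast counts of 1 to 12 in control replicate 2, the lowest share, and 29 of 37 in levofloxacin replicate 3, the highest. Of chloroplast counts of 13 to 50, 56.8% were even. Among all other IDs, counts of 13 to 50 were even in 52.1%. Where reads enter a count in pairs, the number of independent molecules is below the number of reads, so intervals that take reads as independent are too narrow. How mates of a read pair were counted is not given in the sources used here.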
